A study of Mus musculus with 504 samples.

Results

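The smooth muscle contractile genes examined here are Acta2, Myh11, Myl9, Mylk, Tagln, Cnn1, Cald1, Tpm1, Tpm2 and Des. They were chosen by name and are 10 of the 55450 genes in the count table. RNA was measured in pools of 5 cells sorted from mammary tumours of mice that carry MMTV-PyMT, MMTV-Flpo, the RC::FrePe reporter and either Tnc-CreERT2 or Cdh2-CreERT2, and the 5 animals of each line had all of these alleles. In this reporter Flpo, driven by the MMTV promoter, turns on mCherry in mammary epithelium and tumour cells, and Cre then replaces mCherry with GFP for good. Cre is active only where the Tnc or the Cdh2 promoter is on while tamoxifen is present, so GFP marks cells with a history of Tnc or Cdh2 expression. All animals received 2 mg tamoxifen 2 times a week from week 9 until they were killed at 13 to 14 weeks.

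Of 487 libraries made from cells, 335 passed the submitters' quality control and were used. In the Tnc-CreERT2 animals, whose names begin with TENA, the GFP-high, mCherry-negative populations were P15 without EpCAM (12 libraries, 3 animals), P10 with low EpCAM (25 libraries, 4 animals), and P16 and P09 with medium EpCAM (26 libraries of 4 animals and 48 libraries of 5). P22 was high for GFP, mCherry and EpCAM (50 libraries, 5 animals). The mCherry-high, GFP-negative populations were P05 without EpCAM (32 libraries, 5 animals), and P17 and P18 with high EpCAM (11 libraries of 3 animals and 55 of 5). In the Cdh2-CreERT2 animals, named Cdh, the populations were P15 (16 libraries, 3 animals), P05 (10 libraries, 1 animal) and P18 (50 libraries, 5 animals), with the same gates. P18, the EpCAM-high tumour cells that never switched to GFP, was the population against which the others of the same line were set.

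Smooth muscle shortens when myosin light chain kinase (Mylk), activated by calcium and calmodulin, phosphorylates the regulatory light chain (Myl9) of smooth muscle myosin (heavy chain Myh11), which then pulls on filaments of alpha smooth muscle actin (Acta2). Tropomyosins (Tpm1, Tpm2), calponin (Cnn1), caldesmon (Cald1) and transgelin (Tagln) lie along those filaments, and desmin (Des) forms intermediate filaments of muscle. In the mammary gland this apparatus is known from the myoepithelial layer and from vessel walls, and several of its genes are made by activated fibroblasts and by epithelial cells in a mesenchymal state. Genes for Tpm1, Tpm2 and Cald1 also make non-muscle isoforms in most cells, and counts per gene do not tell the isoforms apart.

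Totals ran over 313655 to 27849014 counts per library. Counts were summed per animal and population into 43 sums, 34 of them from TENA animals, and levels are CPM of these sums (counts per 1e6, with library sizes scaled by TMM), given as mean ± SD over animals. Beneath the means, 2 sums rested on 1 library: P15 of TENA2524 and P16 of TENA2483. TENA2524 and all Cdh animals were sequenced in lane 2 and the other 4 TENA animals in lane 1. In the TENA P15 gate all 12 libraries held the leukocyte gene Ptprc, where a library is said to hold a gene at 10 CPM or more of its own total. The summed leukocyte markers were 1973 to 6902 CPM in TENA P15, 133 to 2763 in TENA P05 and 5.27 to 39.6 in TENA P18. They were 3.46 to 26.8 CPM in Cdh P15 sums, where Ptprc was at 0, against 11.3 to 615 in Cdh P18. Epcam, whose protein set the gates, was held by 9 of 16 Cdh P15, 1 of 10 Cdh P05, 3 of 12 TENA P15 and 11 of 32 TENA P05 libraries, against all 50 of Cdh P18 and all 55 of TENA P18.

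Acta2 (chr19:34241090-34255590 on GRCm38, minus strand) and Myl9 (chr2:156775420-156781658, plus strand) are the members with the highest mean levels per exon length in Cdh P15 and TENA P05. Bases around the CArG boxes near their start sites are shown because the CArG box, the motif bound by serum response factor, is the textbook element of this gene class. The sequences are from RefSeq's GRCm38.p6, and distances below count back from RefSeq's start sites. Those starts lie inside the GENCODE gene bounds given above, and so do both Acta2 stretches, while both Myl9 boxes lie before its bounds. Capitals mark a CArG box with at most 1 mismatch in its 6 inner bases.
Myl9, chr2:156775284-156775383, plus strand: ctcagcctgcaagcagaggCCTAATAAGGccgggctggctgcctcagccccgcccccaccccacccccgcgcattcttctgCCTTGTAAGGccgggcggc
Acta2, chr19:34255438-34255467, minus strand: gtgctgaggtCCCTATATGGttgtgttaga
Acta2, chr19:34255388-34255417, minus strand: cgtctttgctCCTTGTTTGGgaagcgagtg
Over 8 of 10 members with a listed promoter of 250 bases, the exact CArG box was in Myl9 alone, at 161 to 152 bases before its start, and it was in 1.47% of all 32851 promoters. With 1 inner mismatch allowed, Myl9 had a second match at 99 to 90 bases and Acta2 had matches at 84 to 75 and 34 to 25 bases, and 8.59% of all promoters had at least 1. Both strands were searched, and the windows of the other 6 matched members did not contain these letters.

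Acta2 was abundant in every EpCAM-negative sum of the Cdh line and in some of those of the TENA line. Its level was 654, 710 and 550 CPM in the Cdh P15 sums of Cdh1624, Cdh1654 and Cdh1739, and 96.7 CPM in Cdh P18 of Cdh1624 against 0.407 to 1.57 CPM in Cdh P18 of the other 4 animals. In TENA P15 it was 0.035 CPM in TENA2483, 15.4 in TENA2517 and 1531 in TENA2524. In TENA P05 it was 25.3 CPM in TENA2462, 809 in TENA2483, 12.7 in TENA2517, 611 in TENA2524 and 518 in TENA2560, against 0.472 to 1.62 CPM in TENA P18. So Cdh P15 was even across its animals, while TENA P15 held both the lowest and the highest Acta2 level of the sums named. P10 was the next TENA population in order, at 3.24, 2.14, 7.13 and 2.60 CPM. Its sums did not overlap those of P22, and its lowest was just below the highest of P09, 2.17 CPM. Overlap is a description of levels here and below, as the share of all genes without it is not given. The single Cdh P05 animal stood at 661 CPM. P22, P09, P18, P17 and P16 of the TENA animals averaged 0.548 to 1.11 CPM and overlapped one another.

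Myl9, the light chain that the kinase phosphorylates, was 306, 330 and 231 CPM in Cdh P15, against a mean of 1.41 ± 1.08 CPM in Cdh P18 (SD, n = 5). In TENA P15 it was 0 in TENA2483, 0.130 in TENA2517 and 177 CPM in TENA2524. In TENA P05 it was 18.7, 284, 0.095, 219 and 240 CPM in the animal order given for Acta2, against 0.015 to 1.83 CPM in TENA P18. The animals high in Acta2 were thus also the animals high in Myl9, and TENA2517 was lowest in P05 for both. No P10 or P17 sum had a Myl9 read. The single Cdh P05 animal was highest at 405 CPM, above every Cdh P15 sum, but a single animal gives no spread.

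Mylk (chr16:34745210-35002420, plus strand), the kinase, was 110, 171 and 94.0 CPM in Cdh P15 and 78.1 CPM in the Cdh P05 animal, against 4.16 ± 3.93 CPM in Cdh P18. In TENA P05 it was 4.19, 76.9, 30.5, 25.1 and 124 CPM, and in TENA P15 it was 0, 0 and 59.4, against 0 to 9.59 CPM in TENA P18. Cdh P15 had the highest mean for the kinase, and each of its sums was above the single Cdh P05 animal, which gives no spread. Myh11 (chr16:14194535-14291372, minus strand), the heavy chain that defines differentiated smooth muscle, was low everywhere. It reached 33.7 CPM in TENA P15 of TENA2524 and 16.2 CPM in TENA P05 of TENA2560, was 2.87 CPM in Cdh P15 of Cdh1654 and had no read in the other 2 Cdh P15 sums. Its motor partner Acta2 was therefore present at 550 CPM or more in Cdh P15 with almost none of the heavy chain.

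Tagln (chr9:45929619-45936058, minus strand), an actin-bundling protein, was uneven between animals. In TENA P15 it was 0.173, 0 and 534 CPM, with nearly all of the signal in TENA2524. In TENA P05 it was 16.9, 111, 1.52, 128 and 13.6 CPM, against 0.073 to 9.69 CPM in TENA P18. In Cdh P15 it was 9.86, 24.3 and 0.434 CPM, against 1.08 ± 0.921 CPM in Cdh P18, so the Cdh sums held far less Tagln than Acta2. P10 had the lowest level, 0.0416 ± 0.0282 CPM (SD, n = 4).

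Cnn1 (chr9:22099216-22109630, plus strand), which binds actin and slows myosin, had reads in the P15 sort of the Cdh line alone. It was 52.0, 71.6 and 357 CPM in Cdh P15, and the 3 TENA P15 sums had no Cnn1 read among them. By edgeR this difference was not called, and the 2 sorts also differed in lane, for most animals, and in leukocyte RNA. In TENA P05 Cnn1 was 0.147, 131, 0, 91.7 and 19.4 CPM, against 0.938 ± 0.934 CPM in TENA P18. In Cdh P18, Cdh1725 had 2.22 CPM and the other 4 animals had none.

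Cald1 (chr6:34598500-34775473, plus strand), caldesmon, and the tropomyosin gene Tpm1 were made in every population, and for both TENA P15 had the lowest mean. Cald1 was 17.2, 0.391 and 16.1 CPM in TENA P15 and 251, 258, 151, 112 and 225 CPM in TENA P05, against 117, 69.9, 102, 99.5 and 93.1 CPM in TENA P18. It was 127, 118 and 135 CPM in Cdh P15, against 85.6 ± 31.1 CPM in Cdh P18. TENA P15 did not overlap either of the other TENA populations named, while TENA P05 overlapped P18. Tpm1 (chr9:67022590-67049406, minus strand) was 30.2, 87.3 and 46.5 CPM in TENA P15 and 267, 432, 15.1, 93.4 and 326 CPM in TENA P05, against 117 to 354 CPM in TENA P18. It was 256, 406 and 450 CPM in Cdh P15, against 146 ± 90.7 CPM in Cdh P18. The TENA P15 mean of Tpm1 was below that of every other population. Its sums did not overlap P17, the next above it by mean, but they overlapped P05, P10 and P16 of the TENA animals and Cdh P18.

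Tpm2 (chr4:43514711-43523765, minus strand), beta-tropomyosin, was 106, 95.5 and 86.6 CPM in Cdh P15, against 14.0 ± 10.6 CPM in Cdh P18. In TENA P15 it was 6.97, 6.19 and 202 CPM, again with TENA2524 high, and in TENA P05 it was 159, 124, 0, 69.9 and 200 CPM, against 17.9 to 70.4 CPM in TENA P18. P10 was lowest at 7.92 ± 8.29 CPM. Des (chr1:75360329-75368579, plus strand), the intermediate filament of muscle, was absent from all Cdh sums and from P18, P22, P09 and P17 of the TENA animals. It was 21.5 CPM in TENA P05 of TENA2462 and 1.43 CPM in TENA P16 of the same animal, and at most 0.615 CPM in any other sum.

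**Figure D1:**
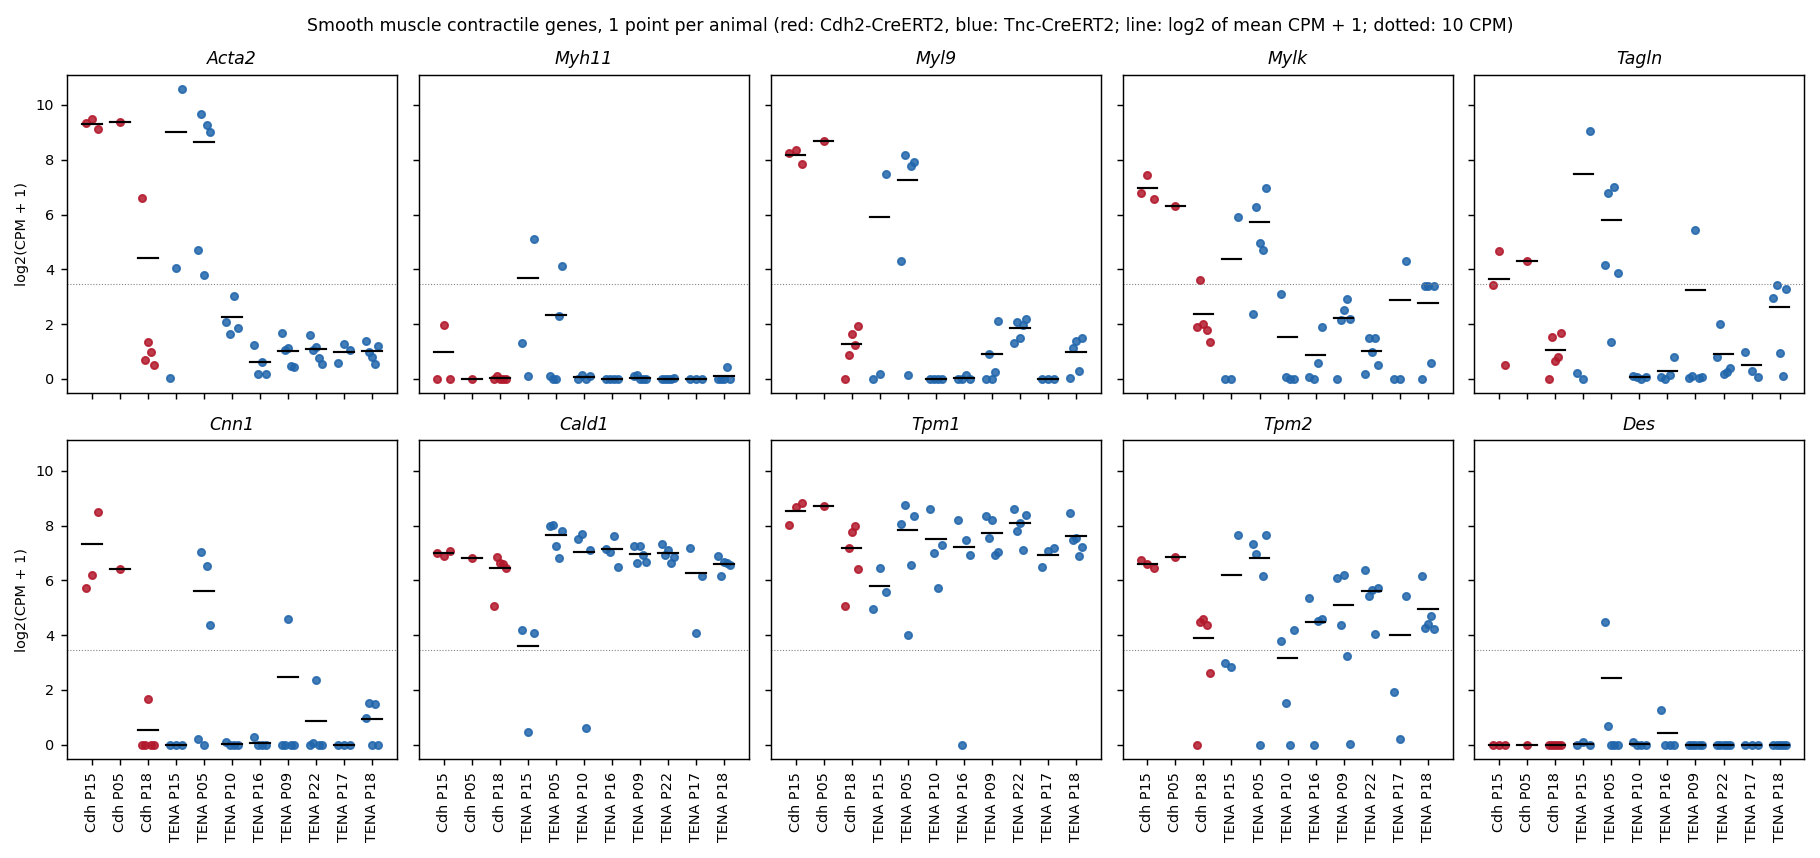
Levels of the 10 genes on a log2(CPM + 1) axis, 1 point per animal and population, with Cdh populations in red, TENA populations in blue, a line at the mean and a dotted line at 10 CPM. Acta2 and Myl9 stand above 100 CPM in the 3 Cdh P15 sums and in some TENA P05 sums, Cald1 and Tpm1 are above 10 CPM in most populations and lowest in TENA P15, and Myh11 and Des stay near 0 in nearly all sums.

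Levels of different members were compared per exon length, as means over sums of pools. In Cdh P15 the levels were 291 CPM per kb for Acta2, 249 for Myl9, 58.6 for Cnn1, 57.2 for Tpm1, 33.0 for Tpm2, 11.1 for Mylk, 10.5 for Cald1 and 5.80 for Tagln. TENA P05 also had Acta2 (180 CPM per kb) and Myl9 (131 CPM per kb) on top, followed by Tpm2 (38.0), Tpm1 (35.0) and Tagln (27.3). TENA P18 had the reverse, with Tpm1 at 30.3 CPM per kb, Tpm2 at 10.4 and Acta2 at 0.465.

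TENA P15 against TENA P18 set the GFP-high, EpCAM-negative sort against EpCAM-high tumour cells. All 12 TENA P15 libraries held Ptprc, 9 held the leukocyte gene Fcer1g, and none held the epithelial genes Krt8 or Cdh1. Other epithelial genes were held by some of them, Epcam by 3 and the basal genes Krt5 and Trp63 by 1 each. Whether these pools held tumour cells only was not tested. In edgeR's quasi-likelihood test with animal as a block and Benjamini-Hochberg adjustment over 33768 genes, 1 of the 10 members was called at an adjusted p under 0.05, and 0.729% of all genes were called. Acta2 rose, at 516 ± 880 CPM in TENA P15 (n = 3) and 1.02 ± 0.454 CPM in TENA P18 (n = 5), with a log2 fold change of 8.91 ± 1.84 (SE), an edgeR adjusted p of 0.0191 and a higher level in 2 of 3 animals. The other motor genes missed edgeR's threshold. DESeq2 called many more genes than edgeR in every comparison, 4996 of the 33768 genes in this one, and all totals are given in the closing section. Beside Acta2, it called Myl9 as higher in P15 (DESeq2 adjusted p = 0.00118) and the actin-associated Cnn1 as lower (DESeq2 adjusted p = 1.95e-07). Myh11 averaged 11.7 ± 19.0 CPM in P15 and 0.0726 ± 0.162 CPM in P18, a log2 fold change of 7.14 ± 2.10 with an edgeR adjusted p of 0.110 and a higher level in 3 of 3 animals. Myl9 averaged 58.9 ± 102 CPM in P15 and 0.968 ± 0.819 CPM in P18, with a log2 fold change of 5.68 ± 2.66. Its edgeR adjusted p was 0.307 and it was higher in 1 of 3 animals. Mylk had a log2 fold change of 1.10 ± 2.71, smaller than its error.

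Among the actin-associated members, Cald1 averaged 11.2 ± 9.40 CPM in TENA P15 and 96.1 ± 17.0 CPM in TENA P18, a log2 fold change of -3.11 ± 1.04 with an edgeR adjusted p of 0.147 and a lower level in 3 of 3 animals. Cnn1 had 0 counts in P15 and 308 in P18, a log2 fold change of at most -3.70 with 3 counts over the group as the limit, and an edgeR adjusted p of 0.303. Tpm1 had a log2 fold change of -1.47 ± 1.01, Tpm2 of 1.29 ± 1.88 and Tagln of 3.23 ± 2.85, and none of the 3 passed. Des had 1 read in P15 and none in P18. The median of the 9 members with a fold was 1.29, with 6 above 0 and 3 below, and the median of all genes was -0.608. Without TENA2524, the only lane 2 animal, the Acta2 log2 fold change was 2.69 (edgeR adjusted p = 0.533) and that of Myl9 was -3.86 (edgeR adjusted p = 0.565). Acta2 also missed the threshold without TENA2462 (9.02, edgeR adjusted p = 0.0649), without TENA2560 (9.02, edgeR adjusted p = 0.0748) and with these 2 populations fitted alone (4.47, edgeR adjusted p = 0.364).

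The high TENA2524 value of P15 was a single library of 508631 counts, the lowest total among the 12. It had 1876 CPM of Acta2, 655 of Tagln, 248 of Tpm2, 216 of Myl9, 72.7 of Mylk, 41.3 of Myh11 and 19.7 of Cald1, with no Cnn1 read. The same library had 2178 CPM of the leukocyte gene Fcer1g, 427 CPM of the fibroblast gene Dcn, 17.7 CPM of the basal gene Trp63, 11.8 CPM of Ptprc and no Vim read. Their part in the result was not tested. Of the other 11 libraries, 3 held Acta2, at 45.5, 17.9 and 17.4 CPM, and all 3 came from TENA2517.

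TENA P05 against TENA P18 set mCherry-positive cells without EpCAM against the same EpCAM-high cells, so both TENA comparisons share the P18 sums. Again 1 of 10 members was called, with 0.545% of all 33768 genes called. Acta2 rose, at 395 ± 359 CPM in P05 and 1.02 ± 0.454 CPM in P18 (n = 5 each), a log2 fold change of 8.74 ± 1.65 with an edgeR adjusted p of 0.0232 and a higher level in 5 of 5 animals. Its P05 and P18 sums did not overlap, and the share of all genes without overlap is not given. DESeq2 called 5005 of the 33768 genes, Acta2 and Myl9 among them (DESeq2 adjusted p = 6.67e-05 for Myl9). Myl9 followed at 152 ± 133 CPM in P05 and 0.968 ± 0.819 CPM in P18, a log2 fold change of 7.06 ± 2.15 with an edgeR adjusted p of 0.125 and a higher level in 4 of 5 animals. Cnn1 had a log2 fold change of 6.37 ± 2.55 (edgeR adjusted p = 0.266) and Myh11 of 4.78 ± 2.18 (edgeR adjusted p = 0.342), each higher in 3 animals. Mylk, at 52.1 ± 48.1 CPM in P05 and 5.76 ± 5.04 CPM in P18, and Tagln, at 54.2 ± 60.2 CPM in P05 and 5.23 ± 4.47 CPM in P18, were higher in 5 of 5 animals without passing the test.

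The other members of the P05 comparison were closer to 0. Cald1 averaged 199 ± 64.9 CPM in P05 and 96.1 ± 17.0 CPM in P18, a log2 fold change of 1.00 ± 0.75 with a higher level in 5 of 5 animals. Tpm1 had a log2 fold change of 0.29 ± 0.83 and Tpm2 of 1.91 ± 1.55. Des had 309 counts in P05 and 0 in P18, a log2 fold change of at least 8.25 against 3 counts over the group, with an edgeR adjusted p of 0.175 and reads in 2 animals. All 10 members lay above 0, with a median of 3.86, against a median of -0.145 over all genes. Fibroblast markers moved with this result: their sum was 12.9 to 14150 CPM in TENA P05 and 0.209 to 6.21 CPM in TENA P18, all 10 of them had reads in P05, and their part was not tested. The Acta2 log2 fold change was 8.32 to 9.14 without TENA2462, TENA2483, TENA2524 or TENA2560 in turn, with edgeR adjusted p-values of 0.065 to 0.137. It was 8.41 within lane 1 alone, and it was 7.70 (edgeR adjusted p = 0.148) with these 2 populations alone. As these are bulk pools, fewer cells of a type and less RNA per cell cannot be told apart.

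**Figure D2:**
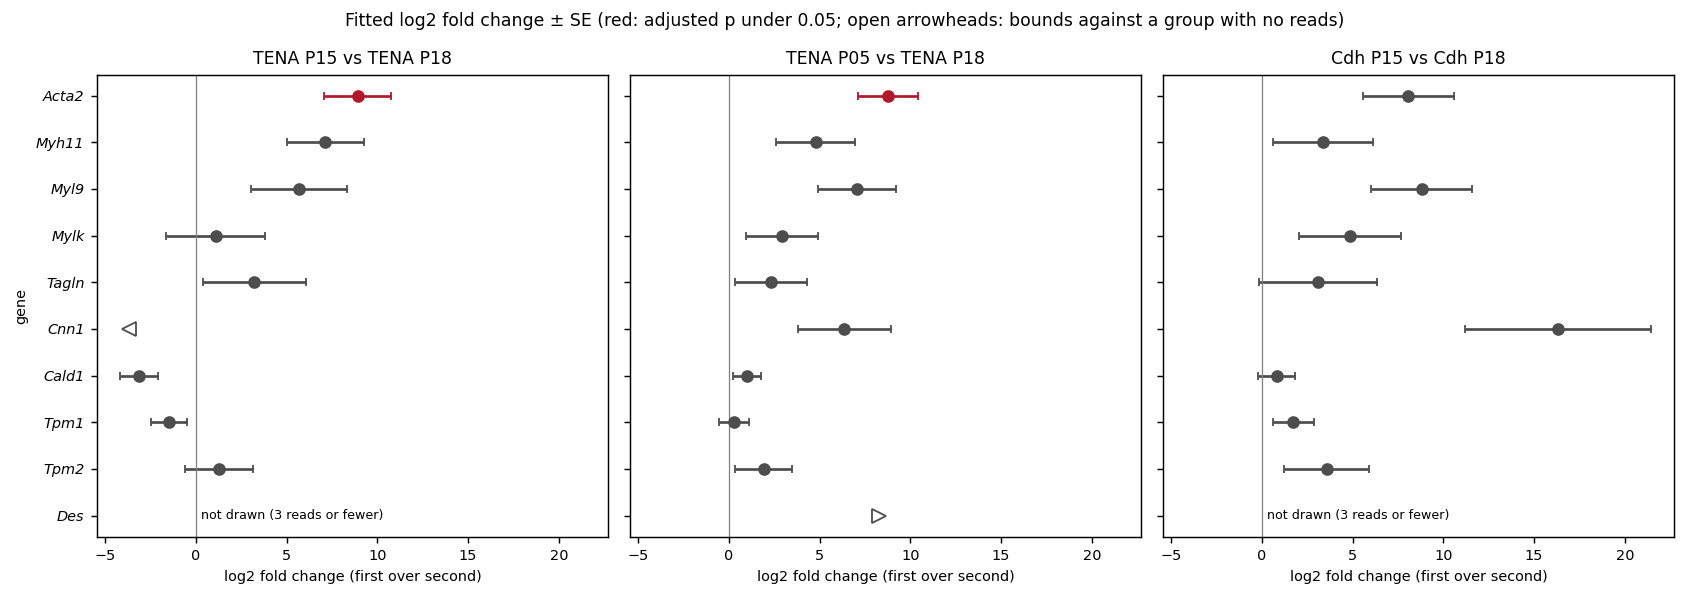
Log2 fold change ± SE of each gene in the 3 comparisons of an EpCAM-negative population with P18, with called genes in red, open arrowheads for bounds against a group without reads and no mark where both groups had 3 reads or fewer. Acta2 is the 1 called gene, at 8.91 in TENA P15 and 8.74 in TENA P05, and the Cnn1 point of Cdh P15 has no read on the P18 side in the animals with both populations, so its position depends on the fit's prior count.

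When TENA P15 was set against TENA P05, no member was called by edgeR, with 0.136% of all genes called. An unadjusted p under 0.05 was found for 2 members (Cnn1 and Cald1) and for 3468 of all 33768 genes. DESeq2 called 4553 of the 33768 genes, the same 2 members among them. Cald1 averaged 11.2 ± 9.40 CPM in P15 and 199 ± 64.9 CPM in P05, a log2 fold change of -4.11 ± 1.09 with an edgeR adjusted p of 0.134 and a lower level in 3 of 3 animals. The Cald1 sums of the 2 populations did not overlap, and the share of all genes without overlap is not given. Cnn1 had 0 counts in P15 and 5401 in P05, a log2 fold change of at most -9.40 with an edgeR adjusted p of 0.241. Acta2 had a log2 fold change of 0.17 ± 1.52 and Tpm1 of -1.76 ± 1.06. The median of the 10 members was -1.57, with 7 below 0, and that of all genes was -0.578. Cald1 passed without TENA2517 (edgeR adjusted p = 0.0198) and without the animal block (edgeR adjusted p = 0.029).

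Cdh P15 against Cdh P18 is the same contrast in the Cdh2-CreERT2 line. No member was called by edgeR and 0% of the 33768 genes were called. At an unadjusted p under 0.05 there were 1215 genes, among them Acta2, Cnn1 and Myl9. These were also the 3 members among the 1906 genes that DESeq2 called. Acta2 averaged 638 ± 81.6 CPM in P15 (n = 3) and 20.1 ± 42.9 CPM in P18 (n = 5), a log2 fold change of 8.08 ± 2.52 with an edgeR adjusted p of 0.747. Myl9 averaged 289 ± 52.0 CPM in P15 and 1.41 ± 1.08 CPM in P18, a log2 fold change of 8.79 ± 2.80 with an edgeR adjusted p of 0.824. The P15 and P18 sums of both genes did not overlap, and the share of all genes without overlap is not given. P18 of Cdh1624, the highest P18 sum for Acta2, rested on 2 libraries of 320085 and 559174 counts. Without Cdh1624 the Acta2 log2 fold change was 9.62 (edgeR adjusted p = 0.483). Cnn1 had 34072 counts in P15 and 375 in P18. The P18 counts were all in Cdh1725, an animal with no P15 sum, and its edgeR adjusted p was 0.814.

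The remaining Cdh members pointed the same way. Mylk averaged 125 ± 40.4 CPM in Cdh P15 and 4.16 ± 3.93 CPM in Cdh P18, with a log2 fold change of 4.86 ± 2.80. Tpm2 averaged 96.1 ± 9.73 CPM in P15 and 14.0 ± 10.6 CPM in P18, with a log2 fold change of 3.56 ± 2.35. Tpm1 had a log2 fold change of 1.74 ± 1.12 and Cald1 of 0.81 ± 1.00, and these 4 genes were higher in 3 of 3 animals. Tagln had 3.07 ± 3.25 and Myh11 3.38 ± 2.75, while Des had no read on either side. All 9 members with a fold lay above 0, with a median of 3.56, against 0 over all genes. Myoepithelial and basal markers summed to 36.6 to 217 CPM in Cdh P15 and 1.14 to 225 CPM in Cdh P18, with reads for 5 of 8 in P15 and none for Krt14, Krt17 and Col17a1. Pericyte and vascular smooth muscle markers summed to 22.8 to 90.1 CPM in Cdh P15 and 19.3 to 35.4 CPM in Cdh P18, with reads for 7 of 10 in P15 and none for Notch3, Kcnj8 and Higd1b. Fibroblast markers summed to 70.2 to 175 CPM in Cdh P15 and 0.0702 to 63.7 CPM in Cdh P18, with reads for 10 of 10 in P15. The part of these lists in the result was not tested.

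Cdh P15 set against TENA P15, fitted on its own without a block over 14028 genes, called no member and 0% of all genes. Line and lane nearly coincide here, since only TENA2524 shares lane 2 with the Cdh animals, and the 2 cannot be told apart. Leukocyte RNA differed as well: all 12 TENA P15 libraries held Ptprc and none of the 16 Cdh P15 libraries did. Its part was not tested. At an unadjusted p under 0.05 there were 1485 genes, Cnn1, Tpm1 and Cald1 among them. DESeq2 called 1331 genes, Cnn1 and Tpm1 among them. Cnn1 had 34072 counts in Cdh P15 and 0 in TENA P15, a log2 fold change of at least 11.79 with an edgeR adjusted p of 0.119. Tpm1 averaged 371 ± 101 CPM in Cdh P15 and 54.7 ± 29.4 CPM in TENA P15, a log2 fold change of 2.70 ± 0.88 with an edgeR adjusted p of 0.199. Cald1 averaged 127 ± 8.71 CPM in Cdh P15 and 11.2 ± 9.40 CPM in TENA P15, a log2 fold change of 3.44 ± 1.37 with an edgeR adjusted p of 0.381. The sums of these 3 genes, picked here by their unadjusted p, did not overlap between the lines. The share of all genes without overlap is not given, so this is a description only. Acta2, at 0.11 ± 2.14, and Tagln, at -4.10 ± 2.94, had errors too wide to order the lines.

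The median of the 9 members with a fold was 2.12 in Cdh P15 over TENA P15, and the median of all genes was 0.375. Asked directly whether the P15 to P18 difference itself differed between lines, the interaction in the joint fit was called for 3 of 33768 genes and for no member. It was 3.93 ± 1.42 on the log2 scale for Cald1 (edgeR adjusted p = 0.490), 3.22 ± 1.51 for Tpm1 (edgeR adjusted p = 0.693) and -0.84 ± 2.58 for Acta2. Cnn1 had the smallest edgeR adjusted p of the members, 0.252. The differences in lane and leukocyte RNA between the P15 sorts apply here too.

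Among the TENA populations that kept some EpCAM, P10 was nearest to the EpCAM-negative sorts for Acta2 and lowest for Tagln and Tpm2. In P10 against TENA P18 edgeR called no member and 0.00296% of all genes. An unadjusted p under 0.05 was found for 3 members (Tagln, Cnn1 and Myl9) and for 2779 of all 33768 genes. DESeq2 called 2447 of the 33768 genes, Tagln and Myl9 among them. Acta2 averaged 3.78 ± 2.28 CPM in P10 (n = 4) and 1.02 ± 0.454 CPM in P18 (n = 5), a log2 fold change of 1.95 ± 1.32 with an edgeR adjusted p of 0.721 and a higher level in 4 of 4 animals. The highest P10 sum, that of TENA2517, drew most of its Acta2 from library R2, with 166 CPM at 313655 counts and 1776 CPM of Fcer1g. Leukocyte markers summed to 6376 CPM in P10 of TENA2517, 354 in TENA2483, 7.28 in TENA2462 and 5.73 in TENA2524, against 5.27 to 39.6 CPM in P18, and Ptprc was held by 4 of 25 P10 libraries. Their part was not tested. Tagln averaged 0.0416 ± 0.0282 CPM in P10 and 5.23 ± 4.47 CPM in P18, a log2 fold change of -7.81 ± 2.86 with an edgeR adjusted p of 0.501. Myl9 had no count in P10 and 330 in P18, a log2 fold change of at most -5.03. Both were lower in 4 of 4 animals. Tpm2 was also lower in 4 of 4 animals, with a log2 fold change of -2.10 ± 1.72. Cnn1 had 1 count in P10 and 308 in P18, a log2 ratio of -6.51 with a 95% counting interval of -11.82 to -4.02.

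In P16 against TENA P18 no member was called by edgeR, with 0.00296% of all genes called. Tagln alone of the members had an unadjusted p under 0.05, as had 2064 of all 33768 genes. It was also the only member among the 1801 genes that DESeq2 called. Tagln averaged 0.233 ± 0.355 CPM in P16 (n = 4) and 5.23 ± 4.47 CPM in P18, a log2 fold change of -5.94 ± 2.67 with an edgeR adjusted p of 0.790. Myl9 had 3 counts in P16 and 330 in P18, a log2 ratio of -5.15 with a 95% counting interval of -7.44 to -3.59. Des had 53 counts in P16, all in TENA2462, and 0 in P18, a log2 fold change of at least 5.77. Of the 10 members 8 lay below 0, with a median of -1.39 counting bounds, against -0.205 over all genes.

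P09 and P22 were the populations closest to TENA P18. In P09 against P18 no member was called by edgeR or DESeq2 or had an unadjusted p under 0.05. Over all genes edgeR called 0%, DESeq2 called 1051 genes and 851 had an unadjusted p under 0.05. Tagln averaged 8.57 ± 19.1 CPM in P09 and 5.23 ± 4.47 CPM in P18, and the P09 mean came from TENA2517 at 42.7 CPM, with 0.0148 to 0.0815 CPM in the other 4 animals. Cald1 averaged 125 ± 26.1 CPM in P09 and 96.1 ± 17.0 CPM in P18 and was higher in 5 of 5 animals, with a log2 fold change of 0.37 ± 0.75. In P22 against P18 no member was called by edgeR or DESeq2 or had an unadjusted p under 0.05. Over all genes edgeR called 0%, DESeq2 called 919 genes and 716 had an unadjusted p under 0.05. Myl9 averaged 2.58 ± 0.902 CPM in P22 and 0.968 ± 0.819 CPM in P18, with a log2 fold change of 2.06 ± 1.74, and Tpm1 averaged 271 ± 98.7 CPM in P22 and 196 ± 92.1 CPM in P18, with 0.49 ± 0.81. Both were higher in 5 of 5 animals. The median member was -0.04 in P09 and 0.08 in P22.

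In P17 against TENA P18, both EpCAM-high and mCherry-high by the labels, edgeR called no member and 0% of all genes. An unadjusted p under 0.05 was found for 2 members (Cnn1 and Myl9) and for 1695 genes. DESeq2 called those 2 members among 1856 genes. Cnn1 had 0 counts in P17 and 308 in P18, a log2 fold change of at most -4.04, and Myl9 had 0 counts in P17 and 330 in P18, at most -4.13. Acta2 averaged 0.992 ± 0.469 CPM in P17 (n = 3) and 1.02 ± 0.454 CPM in P18, with a log2 fold change of 0.07 ± 1.40. Of the 9 members with a fold 8 lay below 0, with a median of -1.32 counting bounds, against -0.405 over all genes.

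Single libraries show how the summed levels were made up. Of the 16 Cdh P15 libraries 13 held Acta2, 15 Myl9, 13 Mylk, 10 Cnn1, 6 Tagln, 1 Myh11 and none Des, and all 16 held Tpm1 and Cald1. Of the 10 Cdh P05 libraries 6 held Acta2 and 7 held Myl9. In Cdh P18, 1 of 50 libraries held Acta2 and 3 held Myl9, while 49 held Tpm1 and 49 held Cald1. In both EpCAM-negative Cdh sorts Acta2 and Myl9 were thus present in most pools and not in a few.

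In TENA P15, 4 of 12 libraries held Acta2 and 1 held Myl9, with 6 for Tpm1 and 2 for Cald1. In TENA P05, 12 of 32 libraries held Acta2, 14 held Myl9, 9 held Tagln and 24 held Cald1. In TENA P18, none of 55 libraries held Acta2, 2 held Myl9, 12 held Mylk, 55 held Tpm1 and 54 held Cald1. Acta2 was also held by 3 of 25 P10 libraries and 1 of 50 P22 libraries, and by no P16, P09 or P17 library. At least 5 of the 10 members were held together by 15 of 16 libraries in Cdh P15, 7 of 10 in Cdh P05, 1 of 12 in TENA P15 and 11 of 32 in TENA P05, against 1 of 50 in Cdh P18 and 2 of 55 in TENA P18.

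**Figure D3:**
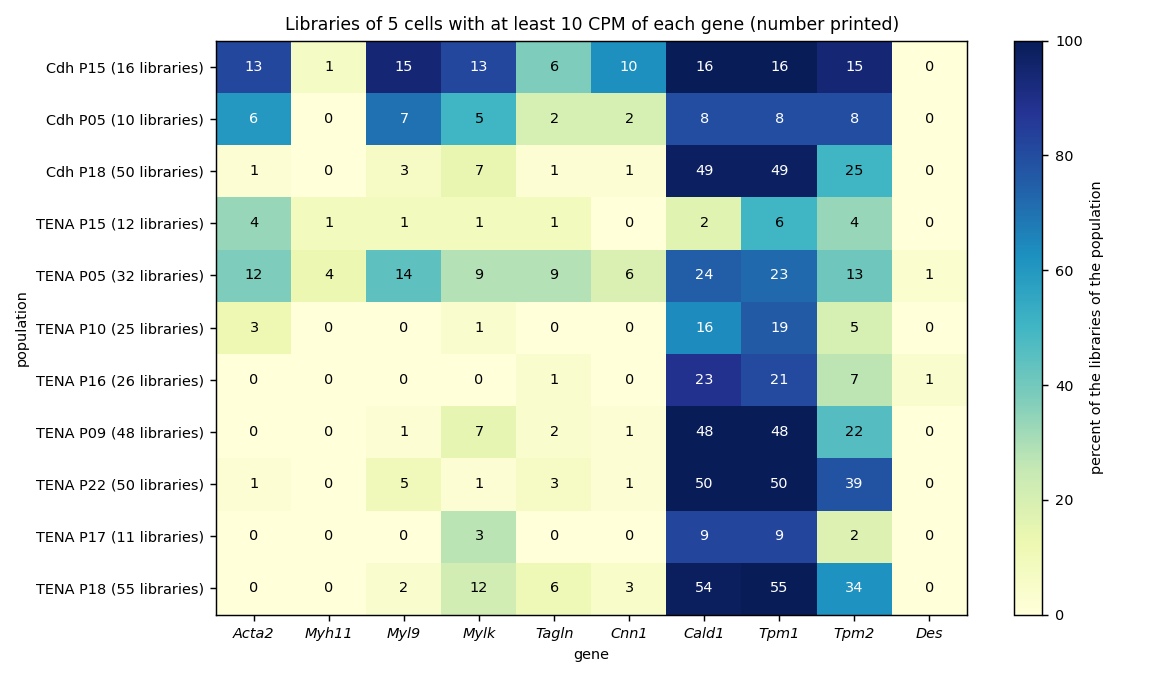
Number of libraries with at least 10 CPM of each gene (printed) in each population, shaded by the percent of that population's libraries. Tpm1 and Cald1 are dark in most rows and pale in TENA P15 (6 and 2 of 12 libraries), while the columns of Acta2, Myl9, Mylk and Cnn1 are darkest in Cdh P15 (13, 15, 13 and 10 of 16 libraries), and Mylk has 12 of 55 libraries in TENA P18 and 3 of 11 in TENA P17.

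How often pools that held Acta2 also held other genes is given beside the number over all libraries. Of the 13 Cdh P15 libraries that held Acta2, all 13 held Myl9, Tpm1, Tpm2 and Cald1, 11 held Mylk, 9 Cnn1 and 5 Tagln. Over all 16 Cdh P15 libraries these were 15, 16, 15, 16, 13, 10 and 6. Tpm1 and Cald1 were held by all 16, so for them the count was fixed beforehand. The same 13 libraries held Vim in 11 cases, Cdh2 in 9 and Trp63 in 7, against 14, 10 and 8 of all 16. Krt8 was held by 2 and Epcam by 6 of them, against 4 and 9 of all 16. Krt5 and Pdgfrb were each held by 1 of the 13 and by 1 of all 16. Krt14, Ptprc and Pecam1 were held by none of the 16. Col1a1 and Rgs5 were held by none of the 13 and by 1 of the 16 each. Of the 12 TENA P05 libraries that held Acta2, all 12 held Cald1, 11 held Vim and 10 held each of Myl9, Tpm1 and Tpm2. Over all 32 TENA P05 libraries these were 24, 26, 14, 23 and 13. Mylk was held by 8 of the 12, Tagln by 7, Cnn1 by 5 and Myh11 by 3, against 9, 9, 6 and 4 of all 32. Col1a1 was held by 7 of these 12, Trp63 by 4 and Ptprc by none, against 16, 4 and 7 of all 32. These are counts of pools of 5 cells, so genes held by the same pool may come from different cells.

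The top libraries differed in what went with Acta2. Library R6 of TENA P05 from TENA2560 had 4644 CPM of Acta2, 1816 of Myl9, 1685 of Tpm2, 1231 of Tpm1, 905 of Mylk and 110 of Myh11, with 93.7 CPM of Krt8, 48.5 of Trp63 and no Col1a1 read. Library R12 of TENA2524 P05 had 1943 CPM of Acta2 with 534 of Krt14, 109 of Krt5 and 130 of Krt8, and no Vim read. These 2 pools carried epithelial keratins beside the contractile genes. Libraries R4 and R7 of TENA2483 P05 had 807 and 278 CPM of Acta2 with 5147 and 6274 CPM of the collagen gene Col1a1, and R7 had 202 CPM of Tnc. Libraries R3 and R12 of the same animal had 1347 and 632 CPM of Acta2 and no Col1a1 read. So pools with and without collagen RNA both reached high Acta2 in 1 animal.

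Some pools split the set. Library R3 of Cdh1739 P15 had 1511 CPM of Cnn1 with 0.357 CPM of Acta2 and no Myl9 read. Library R3 of Cdh1654 P15 had 786 CPM of Tpm1 and 245 CPM of Myl9 and no Acta2 read, at a total of 453079 counts. Library R8 of TENA2524 P05 had more Tagln (330 CPM) than Acta2 (218 CPM), with 1831 CPM of Col1a1 and 337 CPM of Tnc. Des came from library R4 of TENA2462 P05, with 113 CPM beside 570 CPM of Tpm1, 483 of Tpm2, 6693 of Col1a1 and 0.386 of Acta2. The Acta2 level of Cdh P18 in Cdh1624 came from library R8, with 381 CPM at 559174 counts, which also had 717 CPM of Krt8, 773 of Epcam and 594 of Vim.

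**Figure D4:**
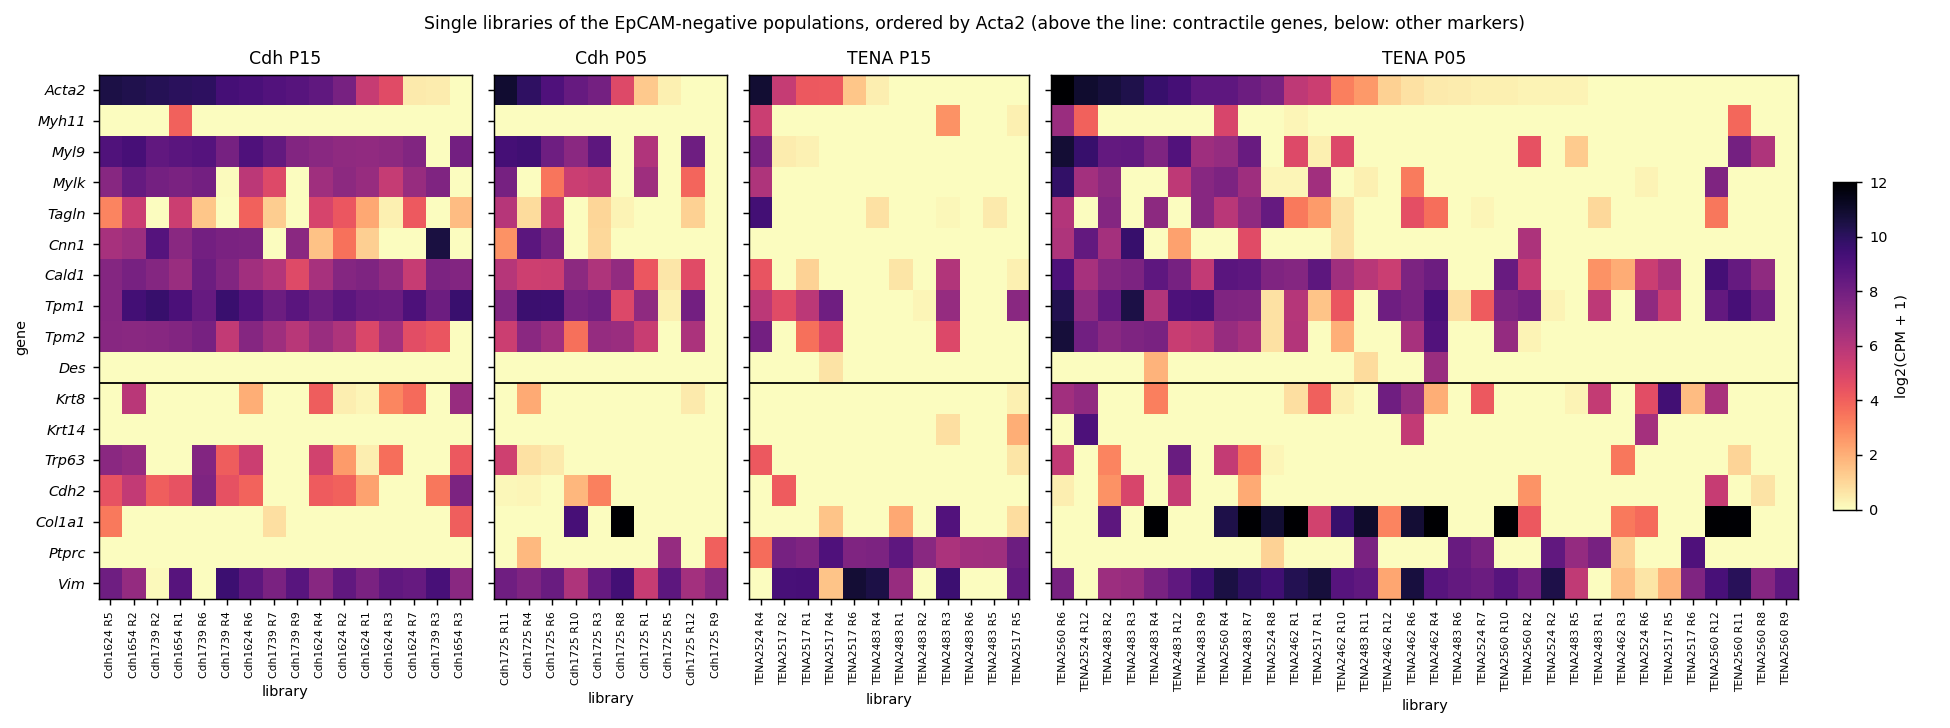
Single libraries of the 4 EpCAM-negative populations in columns, ordered by Acta2 within each population, with the 10 contractile genes above the line and 7 other markers below it, in log2(CPM + 1) with the darkest tone at 12 and above. Dark Acta2 and Myl9 cells fill most Cdh P15 columns, TENA P15 has 1 such column and Ptprc in all 12, and in TENA P05 high Acta2 goes both with and without Col1a1.

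Non-muscle relatives of the members give a measure within each sum that does not depend on how libraries are scaled against each other. Acta2 took 16.2 ± 4.28% of the CPM per kb of Acta2, Actb and Actg1 in Cdh P15 (SD, n = 3) and 1.40 ± 3.11% in Cdh P18 (n = 5). It took 10.7 ± 18.5% in TENA P15, with a range of 0.000705 to 32.1%, and 6.30 ± 6.23% in TENA P05, against 0.0126 ± 0.00411% in TENA P18. Actb itself, the main non-muscle actin, averaged 7434 CPM in TENA P15 and 6398 in TENA P05, against 7843 in TENA P18, with log2 fold changes of -0.01 and -0.10. The Acta2 share thus spread over a wider range between the animals of TENA P15 than in any other population.

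Myl9 took 40.6 ± 11.9% of Myl9, Myl12a and Myl12b in Cdh P15 and 0.179 ± 0.145% in Cdh P18. Its share was 19.8 ± 34.3% in TENA P15 and 19.3 ± 16.1% in TENA P05, against 0.0966 ± 0.0727% in TENA P18. Myh11 took 1.64 ± 2.84% of Myh11, Myh9 and Myh10 in Cdh P15 and 0.0368 ± 0.0824% in Cdh P18. It took 18.8 ± 28.8% in TENA P15 and 4.12 ± 6.62% in TENA P05, against 0.543 ± 1.22% in TENA P18. In Cdh P15 the smooth muscle share of the light chain was thus far above that of the heavy chain. Cnn1 took 13.9 ± 12.0% of the calponins in Cdh P15 and 0.129 ± 0.258% in Cdh P18 (n = 4). It took 0% in TENA P15 and 7.52 ± 8.90% in TENA P05, against 0.345 ± 0.370% in TENA P18. Tagln took 59.6 ± 52.0% of Tagln and Tagln2 in Cdh P15, with a range of 0.855 to 99.6%, and 1.02 ± 1.30% in Cdh P18. Tagln itself was only 0.434 to 24.3 CPM in these Cdh P15 sums. Its share was 33.4 ± 57.7% in TENA P15 and 21.5 ± 24.3% in TENA P05, against 1.84 ± 2.09% in TENA P18. Tpm1 and Tpm2 took 48.0 ± 20.4% of the 4 tropomyosins in Cdh P15 and 24.6 ± 12.8% in Cdh P18, and 33.7 ± 47.2% in TENA P15 and 29.5 ± 20.9% in TENA P05, against 20.6 ± 2.86% in TENA P18. Reads shared by close paralogs such as Acta2, Actb and Actg1 could have been split by the authors' counting, which makes small shares uncertain.

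**Figure D5:**
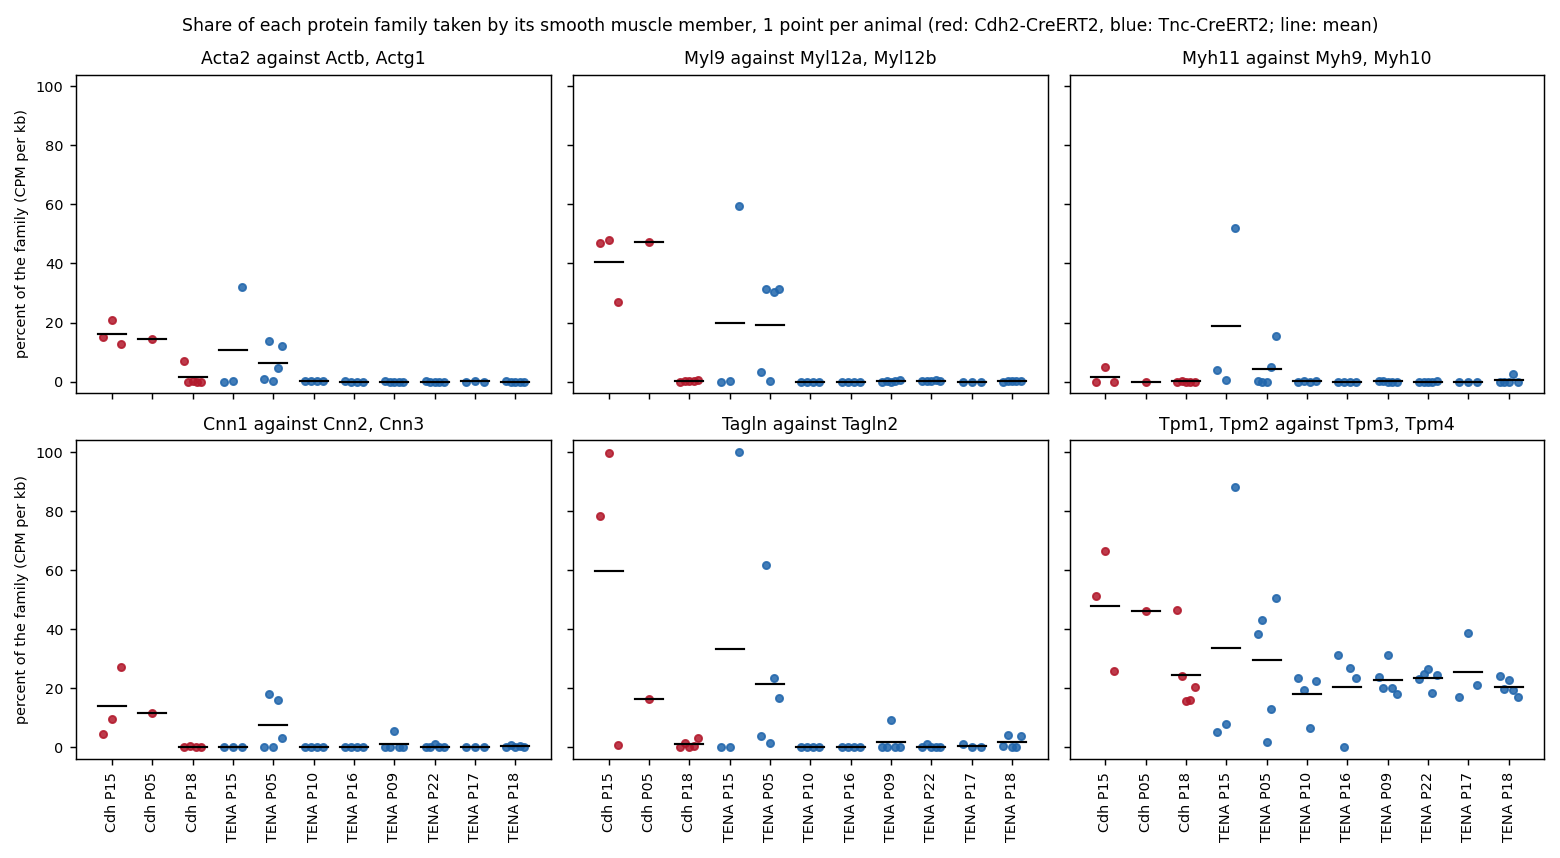
Share of each protein family's CPM per kb taken by its smooth muscle member, in percent, 1 point per animal and population with a line at the mean, Cdh in red and TENA in blue. The 3 Cdh P15 points lie at 12.7 to 21.0% for Acta2 and 26.9 to 48.1% for Myl9, TENA P15 has 1 high point in each panel except that of Cnn1, and the tropomyosin share is near 20% in most populations.

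In the rest of the contractile pathway few genes were called, as was so for all genes tested. None of 16 further genes of the smooth muscle apparatus was called in any comparison. EdgeR called at most 0.729% of all genes in any of them, so this does not show absence of change. Against P18 of its line, 5144 of all 33768 genes had an unadjusted p under 0.05 in TENA P15, 4477 in TENA P05 and 1215 in Cdh P15. From this list there were 3 in TENA P15 (Actg2, Smtn and Itga8), 4 in TENA P05 (Actg2, Synm, Flna and Filip1l) and 2 in Cdh P15 (Actg2 and Flna). The list's median log2 fold change was -0.74 in TENA P15, 1.07 in TENA P05 and 1.21 in Cdh P15, with 6 of 14, 12 of 15 and 14 of 16 above 0. Flna, a filamin that crosslinks actin and among the most abundant of these genes, averaged 155 ± 31.2 CPM in Cdh P15 and 22.8 ± 16.6 CPM in Cdh P18, a log2 fold change of 3.99 ± 1.51 that missed the threshold and was higher in 3 of 3 animals. Csrp1, a LIM protein of actin filaments and the most abundant, averaged 25.1 ± 26.6 CPM in TENA P15 and 31.2 ± 22.9 CPM in TENA P05, against 126 ± 53.8 CPM in TENA P18, and missed the threshold in both.

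Actg2, the enteric smooth muscle actin, and Tgfb1i1, a focal adhesion protein, were picked out after their values were seen. Actg2 averaged 18.1 ± 24.4 CPM in Cdh P15 and 0.0035 CPM in Cdh P18, and 9.98 ± 18.9 CPM in TENA P05 and 0.0054 CPM in TENA P18. Tgfb1i1 averaged 25.4 ± 5.25 CPM in Cdh P15 and 0.356 CPM in Cdh P18, and 33.2 ± 48.1 CPM in TENA P05 and 0.358 CPM in TENA P18, a log2 fold change of 5.63 ± 2.48 in the second pair with an edgeR adjusted p of 0.312.

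Of 12 regulators of contraction and of this gene class 1 was called, in TENA P15 against P18, where 0.729% of all genes were called. Ppp1cb, the catalytic subunit of the phosphatase that removes the phosphate from the light chain, fell in TENA P15, at 15.3 ± 16.8 CPM in P15 and 149 ± 53.0 CPM in P18, a log2 fold change of -3.34 ± 0.77 with an edgeR adjusted p of 0.0331 and a lower level in 3 of 3 animals. Myocd, the cofactor that drives smooth muscle genes, had no read in Cdh P15. Srf, the factor that binds the CArG box, averaged 25.4 CPM in TENA P15 and 1.12 in TENA P05, against 4.93 in TENA P18. In Cdh P15 its mean was 6.39 CPM. The medians of the regulators were 0.42 in TENA P15, 0.85 in TENA P05 and 0.73 in Cdh P15.

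Of 13 non-muscle relatives and companions 2 were called, in comparisons where 0.729% (TENA P15) and 0.545% (TENA P05) of all genes were called. Myl12b, a non-muscle regulatory light chain, fell in TENA P15, at 168 ± 83.7 CPM in P15 and 737 ± 259 CPM in P18, a log2 fold change of -1.94 ± 0.44 with an edgeR adjusted p of 0.0317. Vim, the intermediate filament of mesenchymal cells, rose in TENA P05, at 766 ± 398 CPM in P05 and 9.15 ± 5.72 CPM in P18, a log2 fold change of 6.86 ± 1.55 with an edgeR adjusted p of 0.0341 and a higher level in 5 of 5 animals. Their medians were -0.58 in TENA P15, 0.14 in TENA P05 and 0.87 in Cdh P15.

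Marker lists of other cell types were read against the same shares of all genes called, 0.729% in TENA P15 and 0.545% in TENA P05. In TENA P15 against P18, 3 of 8 leukocyte genes (Fcer1g, Laptm5 and Coro1a) and 2 of 10 fibroblast genes (Lum and Islr) rose and 6 of 8 luminal epithelial genes (Krt8, Epcam, Cldn3, Cldn4, Cldn7 and Cdh1) fell. In TENA P05 against P18, 7 of 10 fibroblast genes, 3 of 8 leukocyte genes (Fcer1g, Lsp1 and Coro1a) and 1 of 8 basal genes (Jag2) rose, and 3 of 8 luminal genes (Krt8, Cldn4 and Cldn7) fell. Col1a1, a fibrillar collagen, was held by 7 of 12 Acta2-holding P05 libraries and by 16 of all 32. It averaged 2232 ± 1769 CPM in P05 and 0.387 CPM in P18, a log2 fold change of 12.89 ± 2.15 with an edgeR adjusted p of 0.0107. No pericyte gene (most abundant Mcam and Notch3), endothelial gene (Egfl7 and Cdh5) or skeletal muscle gene (Acta1 and Tnnt3) was called in any comparison, and in TENA P15 against P05 the 1 called marker, Cldn3, was lower in P15. Which cells carried the contractile RNA in each pool was not tested.

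Over the 34 TENA sums, the genes whose levels ranked most like Acta2 were Grn (Spearman's rho 0.739), Sash1 (0.731), Cd34 (0.711), Col4a1 (0.709) and Tgfbr2 (0.705). The other members ranked less like it, with rho of 0.220 for Tpm1 to 0.416 for Des. Tagln ranked most like Gm48529 (0.785), Gpc6 (0.749), Suds3 (0.688), Epb41l3 (0.673) and Serpina3k (0.657), and its likeness to other members was 0.594 for Tpm2, 0.554 for Mylk, 0.551 for Myl9, 0.503 for Cnn1, 0.320 for Acta2, 0.252 for Tpm1, 0.168 for Cald1, 0.0880 for Myh11 and 0.0017 for Des. Tpm1 ranked most like Tnnt2 (0.849), Tm9sf2 (0.837), Cyp2d22 (0.832), Cnmd (0.824) and Rbms1 (0.815). These coefficients describe sums that share animals, gates and depth, and many low values are ties at 0.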

How the data were processed

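RNA of pools of 5 sorted cells was amplified by Smart-seq2, made into Nextera XT libraries and sequenced paired-end on a NovaSeq, per the labels' protocols. The deposited counts are whole reads per gene, and STAR, SAMtools, featureCounts and Subread and the mm10 build are named in the submitters' processing notes, without versions. The strand setting is not given in the sources used here. Of 504 wells 17 were empty and 152 failed the submitters' quality control. Counts of the 335 passing libraries were summed per animal and population, because pools of 1 animal are not independent. Symbols, coordinates and exon lengths came from GENCODE M21. The tests used edgeR 4.0.16 (TMM, filterByExpr, trended dispersion, quasi-likelihood, Benjamini-Hochberg threshold 0.05), with animal as a block, and R 4.3.3. SE is the log2 fold change over the root of F. Same-numbered sums come from the same animal, and their residuals correlated with a median r of 0.0779 over 105 pairs, against -0.0131 over 413 pairs of different animals. DESeq2 1.42.0, scaling, filter, weights, block, leave-outs and library choices were varied. The fit was tested on simulated data. Members and lists were chosen with earlier results of these data known. The text names the members, the called genes of each list or, where none was called, its 2 most abundant. Intervals and bounds cover counting error only.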

Additional observations from a re-analysis of the deposited data

Results flagged for a closer look

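In groups of 4 or 5 animals, 1 sum stood apart from the others in 23 of 64 groups tested by Dixon's criterion. In 10 of the 23 every other animal was at 0, where any read stands apart, so the rate of about 1 in 20 groups that chance flags does not apply to them. In Cdh P18, Acta2 was 96.7 CPM in Cdh1624 against 0.407 to 1.57 in the others, and Cald1 of the same animal was 32.9 CPM against 86.7 to 114. Cnn1 was 2.22 CPM in Cdh1725 and Myh11 0.0870 CPM in Cdh1654, each with 0 in the others.

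In TENA P05, Tpm2 was 0 CPM in TENA2517 against 69.9 to 200 in the others, and Des was 21.5 CPM in TENA2462 against 0 to 0.615. TENA2462 also stood apart for Des in P16, at 1.43 CPM, and in P10, at 0.0623 CPM, each against 0. In P09, TENA2517 had 42.7 CPM of Tagln and 22.9 CPM of Cnn1, and TENA2462 had 0 CPM of Mylk against 3.45 to 6.47.

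In P10, TENA2517 had 0 CPM of Tagln against 0.0521 to 0.0623 and 0.518 CPM of Cald1 against 137 to 207, and TENA2462 had 0.0623 CPM of Cnn1 and 7.53 CPM of Mylk. In P16, TENA2462 had 0.215 CPM of Cnn1 and TENA2517 0.116 CPM of Myl9, while TENA2483, a sum of 1 library, had 0 CPM of Tpm1 against 122 to 295 and 0 CPM of Tpm2 against 22.0 to 40.4. In P18, TENA2524 had 0.363 CPM of Myh11 and TENA2462 had 70.4 CPM of Tpm2 against 17.9 to 24.9. In P22, TENA2517 had 4.20 CPM of Cnn1 and TENA2560 had 0.0350 CPM of Myh11. Outside the sorted cells, 1 empty well had 34 reads of Des among 256675 counts.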

How the results depend on the processing

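The number of genes called depended on the tool. DESeq2 called 919 genes in P22, 1051 in P09, 1801 in P16, 2447 in P10, 4996 in P15, 5005 in P05 and 1856 in P17 of the TENA animals against P18, 4553 in TENA P15 against P05, 1906 in Cdh P15 against Cdh P18 and 1331 in Cdh P15 against TENA P15. Its member counts were 1 in P16, 2 in P10, 3 in P15, 2 in P05, 2 in P17, 2 in P15 against P05, 3 in the Cdh line and 2 between lines. Without the animal block (the paired analysis is the one reported), edgeR called 3 genes in P16, 0 in P10, 1012 in P15, 510 in P05 with 2 members (Myl9, edgeR adjusted p = 0.0465), 211 in P15 against P05 with 1 member (Cald1) and 22 in Cdh P15; the replicate block changed no other member call. With the 2 populations fitted alone the counts were 0 in P16, 0 in P10, 122 in P15, 2 in P05 and 0 in P15 against P05, with 0 members each, and Myl9 in TENA P15 turned to -2.71.

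With libraries weighted equally the counts were 0 in P16 and 3 in Cdh P15. Bias-adjusted deviances, an option added after seeing the data, gave 15 in P16, 30 in P10, 1016 in P15, 1233 in P05 with 2 members (Myl9), 115 in P15 against P05 with 1 member (Cald1) and 11 in Cdh P15. Without the filter on low counts there were 2 in P10, 2 in Cdh P15 and 73 between lines, 1 of them a member (Cnn1, edgeR adjusted p = 0.0379). Without libraries holding Ptprc there were 4 in Cdh P15 and 2 members in P05 (Acta2 9.20, Myl9 8.07), and no TENA P15 sum was left. RLE scaling gave 81 in P15 against P05. It gave 50.2% of called genes higher in P15, 76.6% in P05 and 24.7% in P15 against P05, where TMM gave 27.2%, 64.7% and 10.9%. It moved the median of all genes to -0.18 in P15 and 0.17 in P05, and none of 17 member results recomputed with it changed direction or call.

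Leaving out 1 animal at a time gave 0 to 0 genes in P22, 0 to 1 in P09, 0 to 3 in P16, 0 to 2 in P10, 42 to 409 in P15, 1 to 292 in P05, 0 to 1 in P17, 3 to 125 in P15 against P05, 0 to 7 in Cdh P15 and 0 to 0 between lines. Member counts were 0 to 1 in P15, P05 and P15 against P05 and 0 elsewhere. Myl9 in TENA P15 ran from -3.86 without TENA2524 to 7.64 without TENA2517. The causes were not tested. Of 110 mean levels, 31 moved by over 1 SD with the median of single libraries and 21 with failed libraries added. With 3 animals in each P15 sort and pools of 5 cells, genes held by few pools had wide errors.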
